A study of Mus musculus with 8 samples.

Results

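The S phase and DNA replication genes described here are 38 genes that license and fire replication origins, copy DNA, supply its building blocks, assemble chromatin behind the fork, or time entry into S phase. They were taken as a named list, matched by symbol to mouse Entrez Gene numbers, and make up 38 of the 24454 genes listed. Expression was measured by RNA sequencing in 4T1 cells, a mouse mammary carcinoma line, in a study of how the kinases MEK5 and ERK5 bear on the epithelial-mesenchymal transition. Cells carried a lentiviral short hairpin RNA against ERK5 (shERK5, 3 libraries, titled shERK5-1), against MEK5 (shMEK5, 2 libraries, titled shMEK5-2) or a control hairpin (shCTRL, 3 libraries). All groups shared the parental line, virus made in HEK293T cells and selection with puromycin. Each target was represented by 1 hairpin, so an effect of losing the target and an effect of that hairpin alone cannot be told apart. The labels are silent on whether replicates were grown separately, and the spread behind each p-value is therefore that between libraries, possibly a technical one.

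A cell prepares to copy its genome in G1, when the origin recognition complex, Cdc6 and Cdt1 load the MCM helicase on to origins. Cyclin E with its kinase partner, and later factors such as Cdc45 and the GINS complex, turn the loaded helicase into a moving fork. Polymerases, the sliding clamp and its loader, nucleotide-making enzymes and histone chaperones then work at that fork. Many of these genes are known targets of E2F transcription factors, whose release from the retinoblastoma proteins marks the passage from G1 into S phase, and ERK5 is itself known as a growth factor-responsive kinase activated by MEK5.

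To show the DNA in front of genes that work in the same complex, the 200 bases upstream of a RefSeq start are given for 4 subunits of the MCM helicase and both members of the Chaf1 pair, whose transcripts moved unequally. They run 5′ to 3′ along the gene's strand, in build GRCm38.p6, and capitals mark letters of an E2F motif, TTTCCCGC, TTTCGCGC, TTTGCCGC or TTTGGCGC on either strand, with overlapping matches run together.
Mcm2: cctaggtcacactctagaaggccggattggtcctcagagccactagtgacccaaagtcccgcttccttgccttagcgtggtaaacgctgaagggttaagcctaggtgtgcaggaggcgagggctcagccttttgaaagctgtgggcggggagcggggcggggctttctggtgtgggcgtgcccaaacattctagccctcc
Mcm3: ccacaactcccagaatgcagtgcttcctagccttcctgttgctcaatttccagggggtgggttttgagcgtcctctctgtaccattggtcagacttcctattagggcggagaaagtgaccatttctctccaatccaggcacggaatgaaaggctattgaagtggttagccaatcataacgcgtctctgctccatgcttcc
Mcm5: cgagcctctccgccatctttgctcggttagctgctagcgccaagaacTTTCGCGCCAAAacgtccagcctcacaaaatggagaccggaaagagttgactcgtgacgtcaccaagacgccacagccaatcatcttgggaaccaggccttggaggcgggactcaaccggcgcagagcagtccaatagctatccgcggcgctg
Mcm6: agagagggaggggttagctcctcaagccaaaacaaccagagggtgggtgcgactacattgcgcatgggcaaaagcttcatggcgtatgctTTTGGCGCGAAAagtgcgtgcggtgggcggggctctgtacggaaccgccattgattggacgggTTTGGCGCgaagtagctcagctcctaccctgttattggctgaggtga
Chaf1a: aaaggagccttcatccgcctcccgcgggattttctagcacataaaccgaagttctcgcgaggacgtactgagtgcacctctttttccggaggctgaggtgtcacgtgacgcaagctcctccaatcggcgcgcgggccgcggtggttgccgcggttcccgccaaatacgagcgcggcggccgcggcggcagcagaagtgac
Chaf1b: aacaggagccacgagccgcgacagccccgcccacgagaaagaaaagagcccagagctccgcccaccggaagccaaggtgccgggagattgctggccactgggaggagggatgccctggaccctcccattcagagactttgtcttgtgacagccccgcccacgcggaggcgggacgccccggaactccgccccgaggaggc
The windows lie at chr6:88898781-88898980 (minus strand) for Mcm2, chr1:20820313-20820512 (minus) for Mcm3, chr8:75109309-75109508 (plus) for Mcm5, chr1:128359706-128359905 (minus) for Mcm6, chr17:56040216-56040415 (plus) for Chaf1a and chr16:93883701-93883900 (plus) for Chaf1b. Mcm6 holds 3 E2F matches, of which 2 overlap, and Mcm5 holds 2 overlapping ones. The 2 matches of Mcm3 lie after its start, outside the printed bases, and Mcm2 and both Chaf1 genes have none. Mcm7, whose promoter is not printed, has 2 matches, which begin at bases -165 and 16 relative to its listed start. RefSeq promoter entries were matched for 32 of the 38 genes, all but Pole, Gins2, Mcm4, Ccne2, Gmnn and Gins1. Over 300 bases, 250 before to 50 after the start, the E2F letters stood in 12 of 32 (37.5%), against 2.32% of all 27025 promoters in the table and 4.59% of the 9246 promoters of tested genes. The letters CCAAT stood in 19 of 32 (59.4%), against 37.9% of all promoters and 39.95% of those of tested genes. TTTGAA, the core of the cell cycle homology region of G2/M promoters, stood in 3 of 32 (9.38%), against 18.1% of all promoters and 11.7% of those of tested genes, a share near that of the members. Both were counted on either strand. Among genes that fell in shERK5 against shCTRL, 7 of 16 with an entry held E2F letters, as did 2 of 8 that rose and 3 of 8 not called. Among genes that rose in shMEK5 against shCTRL, 4 of 16 held them, as did 8 of the 16 that did not rise. For some genes the listed start lies inside the outermost start in the GENCODE M21 annotation. The distance is 539 bases for Mcm7, 466 for E2f1, 350 for Cdc6 and 325 for Dut, so their windows lie within the annotated gene. A match describes letters, not a bound site.

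Depth ran from 41397315 to 53714288 reads assigned to genes per library, so that 1 read was worth 0.0186 to 0.0242 CPM (reads per 1000000 assigned reads) and a count of 0 allows up to 0.0725 CPM. All 38 genes passed the filter of 1 CPM in at least 2 libraries, with no fewer than 292 reads in any library. Mapk7, the gene of ERK5, stood at 24.4% of its shCTRL level in shERK5 and 73.0% in shMEK5, and Map2k5, the gene of MEK5, at 39.2% of shCTRL in shMEK5 and 101% in shERK5. The 6 mammary epithelial markers (Epcam, Krt8, Krt18, Krt19, Cdh1 and Cldn4) summed to 1641 to 1686 CPM in shERK5, 1275 to 1340.5 CPM in shMEK5 and 1699.7 to 1882 CPM in shCTRL. The sum is led by Krt8 and Krt18, which fell in both knockdowns; 4 of the 6 rose and 2 fell in shERK5 against shCTRL (median log2 fold change 1.04, highest 2.04), while 3 rose and 2 fell in shMEK5 (median 0.14). Endothelial markers summed to at most 0.338 CPM and leukocyte markers to at most 0.0936 CPM in any library. Fibroblast markers summed to 22.5 to 27.99 CPM in shERK5, 33.6 to 35.5 CPM in shMEK5 and 31.4 to 46.3 CPM in shCTRL, almost all of it Pdgfra, with Dcn and Lum at 0 reads in every library.

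In shERK5 cells these genes were lower on balance than in shCTRL cells, and in shMEK5 cells they were higher. Against shCTRL, 19 of the 38 fell and 8 rose in shERK5 (limma on log2(CPM + 1), Benjamini-Hochberg adjusted p under 0.05 over 11623 tested genes), where 31.3% of all tested genes fell and 32% rose (63.3% in either direction). In shMEK5, 5 fell and 18 rose, where 25.6% of tested genes fell and 23.1% rose (48.7% in either direction). Both comparisons use the same 3 shCTRL libraries, so their values are set side by side and not counted against each other. The median log2 fold change of the 38 genes was -0.18 in shERK5 (quartiles -0.34 and 0.059), against 0.0023 over all tested genes, and 0.16 in shMEK5 (quartiles 0.025 and 0.33), against -0.019. All shERK5 libraries lay below all shCTRL libraries in 20 of the 38 genes and above them in 8, where 33.1% of tested genes lay below and 34.8% above (67.9% together). For shMEK5 these counts were 6 and 21, where 36.5% lay below and 32.2% above (68.7% together). The count that rose in shERK5 was 5 without shERK5 replicate 3. Calls over all tested genes numbered 6427 in that fit, against 7360 with all libraries. In shMEK5, fewer of the 38 rose and fewer fell when either of its 2 libraries was left out. Fewer of all tested genes were called in those fits too.

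Set directly against shMEK5, the fitted level in shERK5 was lower for every gene of the list. The shCTRL libraries enter this comparison only through the shared estimate of the spread. The fitted change was below 0 for 38 of 38, as it was for 47% of all tested genes, and 30 fell (limma, adjusted p under 0.05), where 17.4% of tested genes fell (39.4% were called in either direction). No gene of the list rose, where 22% of tested genes rose; with no fitted change above 0 the count is also 0 at an unadjusted p under 0.05, and edgeR and DESeq2 gave 0 as well. The median was -0.34 (quartiles -0.44 and -0.25; lowest -0.86, highest -0.029), against 0.017 over all tested genes. In 34 of the 38, all 3 shERK5 libraries lay below both shMEK5 libraries, which held for 26.9% of tested genes (34.1% lay above, 61% together). The 8 not called were Gins2, Orc1, Orc6, Prim1, Rrm2, Fen1, Ccne2 and Gmnn. The 30 calls rest on 2 shMEK5 libraries, and 21 of them held under every alternative described below.

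**Figure D1:**
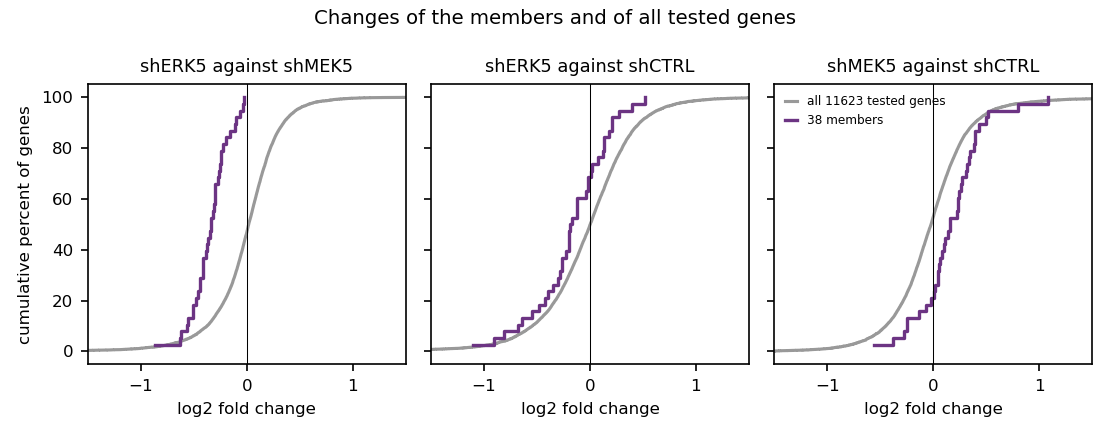
Cumulative percent of genes (vertical axis) by log2 fold change (horizontal axis, drawn between -1.5 and 1.5) for the 38 replication genes and all 11623 tested genes, in shERK5 against shMEK5, shERK5 against shCTRL and shMEK5 against shCTRL. The curve of the 38 genes ends below 0 in the first panel, and crosses its middle at -0.18 in shERK5 and 0.16 in shMEK5 against shCTRL.

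Summed over the 38 genes, expression was 3176 ± 100 CPM in shERK5 (SD, n = 3), 4006 ± 63.1 CPM in shMEK5 (n = 2) and 3599 ± 155 CPM in shCTRL (n = 3). This was 0.306 to 0.325% of assigned reads in shERK5, 0.396 to 0.405% in shMEK5 and 0.344 to 0.375% in shCTRL, with no overlap between groups. In bulk RNA, fewer cells in S phase and less of these transcripts per cell cannot be told apart. Per kilobase of exon, levels in shCTRL ran between 2.2 CPM per kb for Orc1 and 101 CPM per kb for Pcna. The level per kb and the log2 fold change were weakly related across the 38 genes, with Spearman's rho of -0.073 in shERK5 and -0.12 in shMEK5, as a description of genes that share their libraries.

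**Figure D2:**
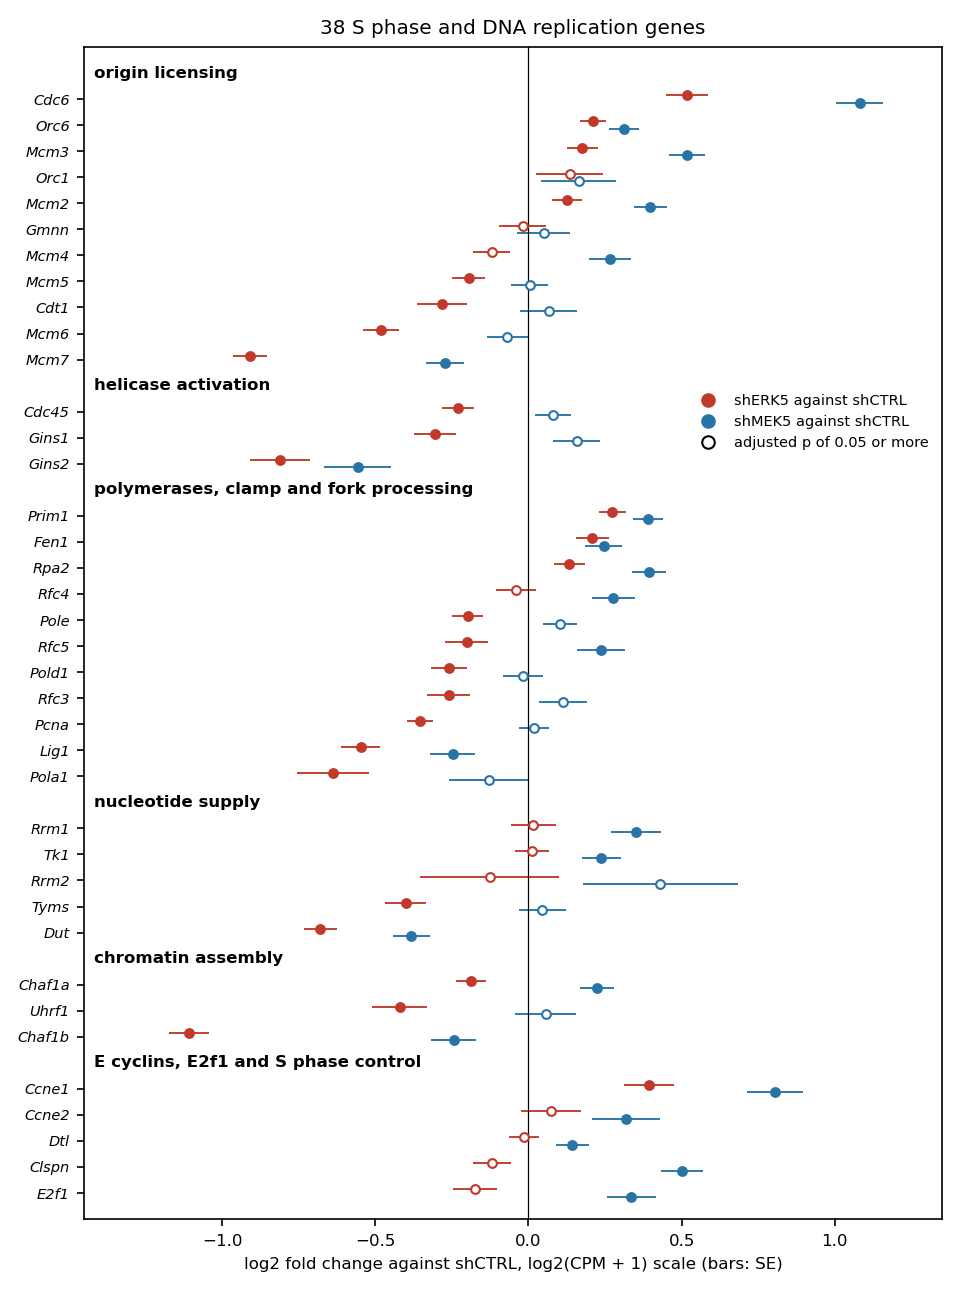
Log2 fold changes against shCTRL (horizontal axis, log2(CPM + 1) scale, bars are SE) of all 38 genes, grouped by function, for shERK5 and shMEK5; filled points have an adjusted p under 0.05. The point of shERK5 lies left of that of shMEK5 in every row, and the widest spread within a group is in origin licensing, between Cdc6 and Mcm7.

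Origin licensing did not move as a block. In shERK5 against shCTRL, Cdc6, Orc6, Mcm3 and Mcm2 rose, Mcm7, Mcm6, Cdt1 and Mcm5 fell, and Mcm4, Orc1 and Gmnn were not called, so 4 of 11 rose and 4 fell. Of all tested genes, 32% rose and 31.3% fell in shERK5, so both counts were near the shares of all genes. In shMEK5, Cdc6, Mcm3, Mcm2, Orc6 and Mcm4 rose, 5 of 11, and Mcm7 fell, where 23.1% of tested genes rose and 25.6% fell. The counts of the other role groups below are to be read against the same shares. Summed over the 11 genes, expression was 1245 ± 46.9 CPM in shERK5, 1586 ± 20.3 CPM in shMEK5 and 1388 ± 49.5 CPM in shCTRL.

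Cdc6, the ATPase that helps load the MCM helicase, was the member with the largest rise in both knockdowns. It had 63.5, 74.6 and 77.1 CPM in shERK5, 103 and 109.8 CPM in shMEK5, and 50, 48.9 and 49.9 CPM in shCTRL. Every knockdown library was above every shCTRL library, and both shMEK5 libraries were above all 3 of shERK5. For Cdc6 the log2 fold change was 0.52 in shERK5 (SE 0.069, adjusted p = 9.54e-05) and 1.08 in shMEK5 (SE 0.077, adjusted p = 3.13e-06) against shCTRL, and -0.56 in shERK5 against shMEK5 (SE 0.077, adjusted p = 0.000279). Mcm7, a subunit of that helicase, went the other way. It had 93.5, 102 and 98.6 CPM in shERK5, 155 and 151 CPM in shMEK5, and 197, 184 and 174 CPM in shCTRL. Its groups did not overlap, with shERK5 lowest and shCTRL highest. For Mcm7 the log2 fold change was -0.91 in shERK5 (SE 0.055, adjusted p = 5.26e-07) and -0.27 in shMEK5 (SE 0.062, adjusted p = 0.00434) against shCTRL, and -0.64 in shERK5 against shMEK5 (SE 0.062, adjusted p = 3.06e-05).

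Mcm3, another helicase subunit, had 227, 247 and 254 CPM in shERK5, 299 and 316 CPM in shMEK5, and 217, 216 and 209.7 CPM in shCTRL. All shERK5 and shMEK5 libraries were above shCTRL, shMEK5 the most. For Mcm3 the log2 fold change was 0.18 in shERK5 (SE 0.051, adjusted p = 0.012) and 0.52 in shMEK5 (SE 0.057, adjusted p = 5.32e-05) against shCTRL, and -0.34 in shERK5 against shMEK5 (SE 0.057, adjusted p = 0.000985). Its rise in shERK5 was not called without shERK5 replicate 3 (adjusted p = 0.0622). Mcm6, the subunit with 3 E2F matches in its printed promoter, had 191, 207 and 202 CPM in shERK5, 277 and 256 CPM in shMEK5, and 299, 279.8 and 261 CPM in shCTRL. The shERK5 libraries lay below all others, while shMEK5 overlapped shCTRL. For Mcm6 the log2 fold change was -0.48 in shERK5 (SE 0.06, adjusted p = 5.76e-05) and -0.069 in shMEK5 (SE 0.067, adjusted p = 0.412) against shCTRL, and -0.41 in shERK5 against shMEK5 (SE 0.067, adjusted p = 0.000777).

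**Figure D3:**
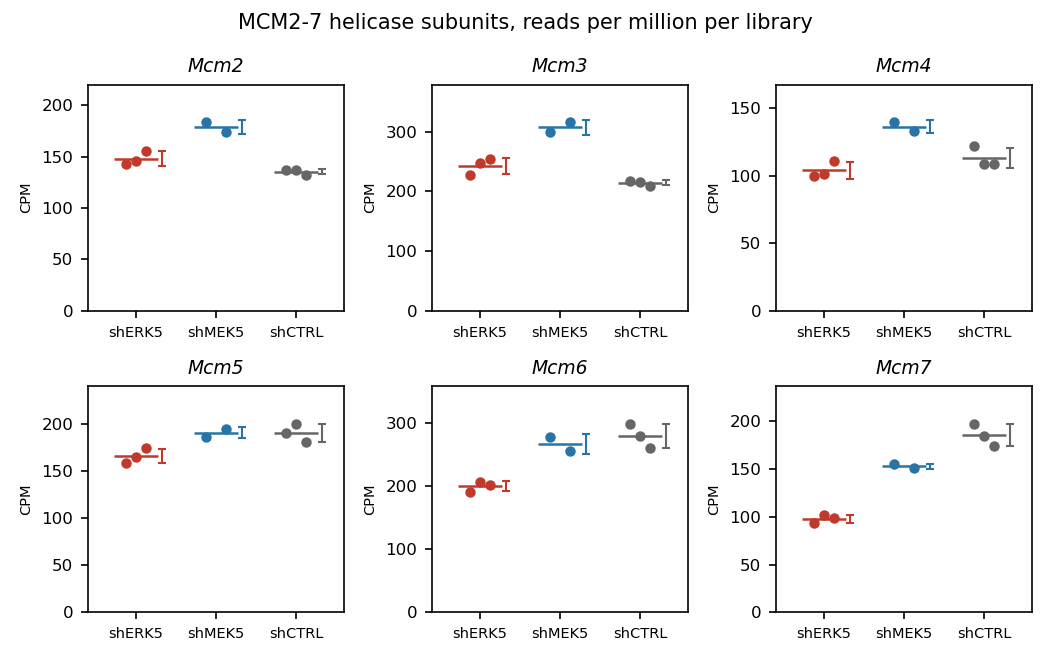
CPM in each library (points) of the 6 genes of the MCM2-7 helicase, with the group mean (line) and SD (bar beside it); shERK5, shMEK5 and shCTRL stand left to right and each axis starts at 0. Mcm2 and Mcm3 are lowest in shCTRL, Mcm7 is highest there, and in all 6 the shERK5 libraries lie below the shMEK5 libraries.

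The 6 subunits are assembled into the same ring, and their transcripts were spread over a range of log2 fold changes between -0.91 for Mcm7 and 0.18 for Mcm3 in shERK5, and between -0.27 for Mcm7 and 0.52 for Mcm3 in shMEK5. Reads of Mcm7 per read of Mcm3 in the same library, a ratio chosen after the values were seen and not tested, averaged 0.404 ± 0.0134 in shERK5, 0.497 ± 0.0284 in shMEK5 and 0.863 ± 0.0399 in shCTRL (SD, n = 3, 2 and 3). Mcm2 had 142, 146 and 156 CPM in shERK5, 183 and 174 CPM in shMEK5, and 137, 137 and 132 CPM in shCTRL. The shERK5 libraries stood a little above shCTRL and the shMEK5 libraries well above both. Against shCTRL, Mcm2 had a log2 fold change of 0.13 in shERK5 (SE 0.048, adjusted p = 0.0411) and of 0.40 in shMEK5 (SE 0.054, adjusted p = 0.000198), and shERK5 against shMEK5 gave -0.27 (SE 0.054, adjusted p = 0.00274). The call of Mcm2 in shERK5 was lost under 10 of 17 alternatives: 7 of the 8 fits that left out a library (adjusted p of up to 0.179, without shERK5 replicate 3), no filter on low values (0.0541), the 2 groups compared alone (0.0514) and the replicate block (0.0511). Mcm5 had 159, 165 and 174 CPM in shERK5, 186 and 195 CPM in shMEK5, and 190.1, 200.1 and 180.4 CPM in shCTRL, so shERK5 lay below both other groups, which overlapped. For Mcm5 the log2 fold change was -0.20 in shERK5 (SE 0.053, adjusted p = 0.00857) and 0.004 in shMEK5 (SE 0.06, adjusted p = 0.961) against shCTRL, and -0.20 in shERK5 against shMEK5 (SE 0.06, adjusted p = 0.0224). Between the knockdowns the fall of Mcm5 was not called without shMEK5 replicate 1 (adjusted p = 0.0603), shMEK5 replicate 2 (0.141) or shERK5 replicate 1 (0.0506). Mcm4 had 99.8, 101 and 111 CPM in shERK5, 139.6 and 133 CPM in shMEK5, and 122, 109 and 108 CPM in shCTRL, highest in shMEK5, with shERK5 and shCTRL overlapping. For Mcm4 the log2 fold change was -0.12 in shERK5 (SE 0.061, adjusted p = 0.108) and 0.27 in shMEK5 (SE 0.068, adjusted p = 0.00842) against shCTRL, and -0.39 in shERK5 against shMEK5 (SE 0.068, adjusted p = 0.00132). Its rise in shMEK5 was not called without shMEK5 replicate 1 (adjusted p = 0.069).

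Among the other licensing genes, Orc6, a subunit of the origin recognition complex, averaged 94.9 ± 2.97 CPM in shERK5, 102 ± 0.0923 CPM in shMEK5 and 81.9 ± 0.395 CPM in shCTRL. It was higher in each knockdown than in shCTRL in all libraries, and shERK5 and shMEK5 did not overlap. For Orc6 the log2 fold change was 0.21 in shERK5 (SE 0.043, adjusted p = 0.00159) and 0.31 in shMEK5 (SE 0.048, adjusted p = 0.000426) against shCTRL, and -0.10 in shERK5 against shMEK5 (SE 0.048, adjusted p = 0.116). Cdt1, the second loading factor, averaged 87.2 ± 8.68 CPM in shERK5, 111 ± 14.1 CPM in shMEK5 and 106 ± 4.36 CPM in shCTRL. All 3 shERK5 libraries lay below both other groups, which overlapped. For Cdt1 the log2 fold change was -0.28 in shERK5 (SE 0.082, adjusted p = 0.0129) and 0.066 in shMEK5 (SE 0.092, adjusted p = 0.581) against shCTRL, and -0.35 in shERK5 against shMEK5 (SE 0.092, adjusted p = 0.0135). Without shMEK5 replicate 1 the change of Cdt1 between the knockdowns was -0.22 and not called (adjusted p = 0.141).

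Orc1, the large ATPase subunit of the origin recognition complex, had 7.04, 9.62 and 8.88 CPM in shERK5, 8.6 and 8.69 CPM in shMEK5, and 8.28, 7.95 and 6.68 CPM in shCTRL. Its groups overlapped in shERK5 against both others. Against shCTRL, Orc1 had a log2 fold change of 0.13 in shERK5 (SE 0.11, adjusted p = 0.306) and of 0.16 in shMEK5 (SE 0.12, adjusted p = 0.293), and shERK5 against shMEK5 gave -0.029 (SE 0.12, adjusted p = 0.872). Leaving out shERK5 replicate 1 gave a call for Orc1 in shERK5 against shCTRL (adjusted p = 0.0405). Gmnn, which encodes geminin, the inhibitor of Cdt1, had 22.7, 26.2 and 25.3 CPM in shERK5, 25.7 and 26.1 CPM in shMEK5, and 27.7, 23.9 and 23.6 CPM in shCTRL. The 3 groups covered much the same range. For Gmnn the log2 fold change was -0.019 in shERK5 (SE 0.077, adjusted p = 0.84) and 0.049 in shMEK5 (SE 0.086, adjusted p = 0.656) against shCTRL, and -0.069 in shERK5 against shMEK5 (SE 0.086, adjusted p = 0.559).

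All 3 helicase activation genes fell in shERK5 against shCTRL, while in shMEK5 Gins2 fell and the other two were not called. Cdc45, which joins the MCM ring in the active helicase, had 111, 117 and 114 CPM in shERK5, 135 and 149 CPM in shMEK5, and 139, 134 and 128 CPM in shCTRL. The shERK5 libraries were below all others. For Cdc45 the log2 fold change was -0.23 in shERK5 (SE 0.053, adjusted p = 0.00325) and 0.08 in shMEK5 (SE 0.059, adjusted p = 0.284) against shCTRL, and -0.31 in shERK5 against shMEK5 (SE 0.059, adjusted p = 0.00207). Gins1, a subunit of the GINS complex, had 19.5, 18.9 and 17.9 CPM in shERK5, 25.8 and 26.6 CPM in shMEK5, and 24, 24.9 and 21.4 CPM in shCTRL. Again shERK5 was lowest without overlap, and shMEK5 lay above shCTRL. For Gins1 the log2 fold change was -0.30 in shERK5 (SE 0.068, adjusted p = 0.00283) and 0.16 in shMEK5 (SE 0.076, adjusted p = 0.111) against shCTRL, and -0.46 in shERK5 against shMEK5 (SE 0.076, adjusted p = 0.000888). Gins2, another GINS subunit and the gene with the fewest reads of the list in any library, had 5.53, 7.23 and 6.57 CPM in shERK5, 8.16 and 7.53 CPM in shMEK5, and 12.6, 12.7 and 10.8 CPM in shCTRL. Both knockdowns lay below shCTRL, and shERK5 below shMEK5. For Gins2 the log2 fold change was -0.81 in shERK5 (SE 0.098, adjusted p = 4.87e-05) and -0.56 in shMEK5 (SE 0.11, adjusted p = 0.00194) against shCTRL, and -0.26 in shERK5 against shMEK5 (SE 0.11, adjusted p = 0.0893). Without shERK5 replicate 2 the difference of Gins2 between the knockdowns was called (adjusted p = 0.0405). Reads of Gins2 per read of Gins1 averaged 0.345 ± 0.053 in shERK5, 0.300 ± 0.0242 in shMEK5 and 0.514 ± 0.00949 in shCTRL, a ratio also chosen after the values were seen.

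Of the 11 genes of polymerases, the clamp and fork processing, 7 fell in shERK5 against shCTRL (Pola1, Lig1, Pcna, Rfc3, Pold1, Rfc5 and Pole) and 3 rose (Prim1, Fen1 and Rpa2). In shMEK5, Lig1 fell and Rpa2, Prim1, Rfc4, Fen1 and Rfc5 rose. Their summed expression was 868 ± 16.4 CPM in shERK5, 1058 ± 20.9 CPM in shMEK5 and 968 ± 32.4 CPM in shCTRL.

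Pcna, the sliding clamp that holds polymerases on DNA, had 184, 195 and 191 CPM in shERK5, 247 and 245 CPM in shMEK5, and 247, 246 and 235 CPM in shCTRL. The shERK5 libraries lay below all others, and shMEK5 and shCTRL overlapped. Against shCTRL, Pcna had a log2 fold change of -0.35 in shERK5 (SE 0.043, adjusted p = 5.28e-05) and of 0.018 in shMEK5 (SE 0.048, adjusted p = 0.778), and shERK5 against shMEK5 gave -0.37 (SE 0.048, adjusted p = 0.000196). Lig1, the ligase that joins Okazaki fragments, had 35.6, 36.9 and 39.1 CPM in shERK5, 44.5 and 47.6 CPM in shMEK5, and 59.4, 54.3 and 51.1 CPM in shCTRL. Its groups followed the order shERK5, shMEK5, shCTRL with no overlap. For Lig1 the log2 fold change was -0.55 in shERK5 (SE 0.065, adjusted p = 4.38e-05) and -0.25 in shMEK5 (SE 0.073, adjusted p = 0.0169) against shCTRL, and -0.30 in shERK5 against shMEK5 (SE 0.073, adjusted p = 0.00787). The fall of Lig1 in shMEK5 was not called without shMEK5 replicate 1 (adjusted p = 0.122), nor that between the knockdowns without shMEK5 replicate 2 (0.0712).

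Prim1, the catalytic subunit of primase, which lays RNA primers, had 128, 133 and 138 CPM in shERK5, 145 and 142 CPM in shMEK5, and 109, 110.2 and 109 CPM in shCTRL. Every knockdown library was above shCTRL. For Prim1 the log2 fold change was 0.27 in shERK5 (SE 0.044, adjusted p = 0.000338) and 0.39 in shMEK5 (SE 0.049, adjusted p = 0.000122) against shCTRL, and -0.12 in shERK5 against shMEK5 (SE 0.049, adjusted p = 0.0878). Between the knockdowns Prim1 fell with RLE or TMM scaling and in edgeR and DESeq2, with adjusted p-values between 0.0379 and 0.0427. Rpa2, a subunit of the protein that coats single-stranded DNA, had 44, 45.4 and 46.5 CPM in shERK5, 52.7 and 56.3 CPM in shMEK5, and 40.2, 42.1 and 41.3 CPM in shCTRL. The shMEK5 libraries were highest and shCTRL lowest, without overlap. For Rpa2 the log2 fold change was 0.13 in shERK5 (SE 0.05, adjusted p = 0.0389) and 0.39 in shMEK5 (SE 0.056, adjusted p = 0.00027) against shCTRL, and -0.26 in shERK5 against shMEK5 (SE 0.056, adjusted p = 0.00424). Its rise in shERK5 was not called in DESeq2 (adjusted p = 0.054) nor without shERK5 replicate 2 or 3 or any of the 3 shCTRL libraries (0.0534 to 0.13). Between the knockdowns the fall of Rpa2 was not called without shMEK5 replicate 2 (adjusted p = 0.0526).

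The catalytic subunits of the replicative polymerases shared a pattern of lower values in shERK5. Pola1, which extends primers, had 63.1, 47 and 44.4 CPM in shERK5, 73.4 and 72.2 CPM in shMEK5, and 85.3, 77 and 77.2 CPM in shCTRL, and its shERK5 replicate 1 stood apart from the other two. For Pola1 the log2 fold change was -0.64 in shERK5 (SE 0.12, adjusted p = 0.00146) and -0.13 in shMEK5 (SE 0.13, adjusted p = 0.441) against shCTRL, and -0.51 in shERK5 against shMEK5 (SE 0.13, adjusted p = 0.0145). Pold1, the lagging-strand polymerase, averaged 41.8 ± 0.58 CPM in shERK5, 49.7 ± 0.412 CPM in shMEK5 and 50.4 ± 3.67 CPM in shCTRL, and Pole, the leading-strand polymerase, 112 ± 4.6 CPM in shERK5, 139 ± 7.35 CPM in shMEK5 and 129 ± 3.88 CPM in shCTRL. For both, every shERK5 library lay below all others, and shMEK5 overlapped shCTRL for Pold1 and lay above it for Pole. Against shCTRL, Pold1 had a log2 fold change of -0.26 in shERK5 (SE 0.058, adjusted p = 0.00271) and of -0.018 in shMEK5 (SE 0.065, adjusted p = 0.841), and shERK5 against shMEK5 gave -0.24 (SE 0.065, adjusted p = 0.0131). For Pole the log2 fold change was -0.20 in shERK5 (SE 0.051, adjusted p = 0.00603) and 0.10 in shMEK5 (SE 0.057, adjusted p = 0.157) against shCTRL, and -0.30 in shERK5 against shMEK5 (SE 0.057, adjusted p = 0.00195). Between the knockdowns neither Pola1 nor Pold1 was called when either shMEK5 library was left out, with adjusted p-values between 0.0575 and 0.0903.

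The clamp loader subunits differed among themselves. Rfc3 averaged 37 ± 2.1 CPM in shERK5, 48.2 ± 1.13 CPM in shMEK5 and 44.6 ± 3.96 CPM in shCTRL, and its shERK5 libraries lay below all others. For Rfc3 the log2 fold change was -0.26 in shERK5 (SE 0.07, adjusted p = 0.00775) and 0.11 in shMEK5 (SE 0.078, adjusted p = 0.256) against shCTRL, and -0.37 in shERK5 against shMEK5 (SE 0.078, adjusted p = 0.00359). Rfc4 averaged 81.2 ± 6.22 CPM in shERK5, 101 ± 3.17 CPM in shMEK5 and 83.5 ± 4.87 CPM in shCTRL. Both of its shMEK5 libraries were above all others, and shERK5 overlapped shCTRL. For Rfc4 the log2 fold change was -0.041 in shERK5 (SE 0.064, adjusted p = 0.596) and 0.28 in shMEK5 (SE 0.071, adjusted p = 0.00864) against shCTRL, and -0.32 in shERK5 against shMEK5 (SE 0.071, adjusted p = 0.00523). Its rise in shMEK5 was not called without shMEK5 replicate 2 (adjusted p = 0.0697). Rfc5 was called in opposite directions in the knockdowns and averaged 43 ± 2.34 CPM in shERK5, 58.7 ± 6.13 CPM in shMEK5 and 49.6 ± 3.05 CPM in shCTRL. Its groups did not overlap, with shERK5 lowest and shMEK5 highest. For Rfc5 the log2 fold change was -0.20 in shERK5 (SE 0.071, adjusted p = 0.028) and 0.24 in shMEK5 (SE 0.079, adjusted p = 0.0297) against shCTRL, and -0.44 in shERK5 against shMEK5 (SE 0.079, adjusted p = 0.0015). Both calls of Rfc5 against shCTRL were unstable. The change in shMEK5 dropped to 0.13 without shMEK5 replicate 2. Its call there was lost without shCTRL replicate 2 or 3 (adjusted p = 0.0515 and 0.0996) or with no filter on low values (0.0579). The call in shERK5 was lost without shERK5 replicate 1 or 3 or shCTRL replicate 1 or 2 (0.0679 to 0.0888). It was also lost with no filter on low values (0.0539). Fen1, the nuclease that trims Okazaki fragment flaps, averaged 95.8 ± 2.79 CPM in shERK5, 98.4 ± 3.26 CPM in shMEK5 and 82.9 ± 5.15 CPM in shCTRL. Every knockdown library was above shCTRL, and the knockdowns overlapped. Against shCTRL, Fen1 had a log2 fold change of 0.21 in shERK5 (SE 0.054, adjusted p = 0.00641) and of 0.25 in shMEK5 (SE 0.06, adjusted p = 0.00688), and shERK5 against shMEK5 gave -0.038 (SE 0.06, adjusted p = 0.656). The rise of Fen1 in shMEK5 was not called without shMEK5 replicate 2 (adjusted p = 0.0651).

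For nucleotide supply, Dut and Tyms fell in shERK5, 2 of 5, while in shMEK5 Dut fell and Rrm1 and Tk1 rose. Dut, the enzyme that removes dUTP and makes the precursor of thymidylate, had 132, 138 and 131 CPM in shERK5, 163 and 166 CPM in shMEK5, and 232, 211 and 203 CPM in shCTRL. Its groups did not overlap, with shERK5 lowest and shCTRL highest. For Dut the log2 fold change was -0.68 in shERK5 (SE 0.054, adjusted p = 2.86e-06) and -0.38 in shMEK5 (SE 0.06, adjusted p = 0.000502) against shCTRL, and -0.30 in shERK5 against shMEK5 (SE 0.06, adjusted p = 0.00299). Tyms, thymidylate synthase, had 26.9, 26.9 and 25.4 CPM in shERK5, 36.2 and 36.4 CPM in shMEK5, and 37.7, 36.3 and 31.8 CPM in shCTRL. Values in shERK5 were below all others, and shMEK5 lay within the range of shCTRL. For Tyms the log2 fold change was -0.40 in shERK5 (SE 0.067, adjusted p = 0.00045) and 0.046 in shMEK5 (SE 0.075, adjusted p = 0.638) against shCTRL, and -0.45 in shERK5 against shMEK5 (SE 0.075, adjusted p = 0.000994).

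Rrm1, the large subunit of ribonucleotide reductase, had 226, 271 and 246 CPM in shERK5, 293 and 332 CPM in shMEK5, and 256, 241 and 236 CPM in shCTRL. Both shMEK5 libraries were above all others, and shERK5 straddled shCTRL. For Rrm1 the log2 fold change was 0.016 in shERK5 (SE 0.072, adjusted p = 0.86) and 0.35 in shMEK5 (SE 0.081, adjusted p = 0.00484) against shCTRL, and -0.34 in shERK5 against shMEK5 (SE 0.081, adjusted p = 0.00783). Tk1, thymidine kinase, had 82.6, 89.5 and 88 CPM in shERK5, 96.6 and 107 CPM in shMEK5, and 86.6, 89.1 and 82.2 CPM in shCTRL, with both shMEK5 libraries again above all others. For Tk1 the log2 fold change was 0.012 in shERK5 (SE 0.056, adjusted p = 0.862) and 0.24 in shMEK5 (SE 0.062, adjusted p = 0.00965) against shCTRL, and -0.23 in shERK5 against shMEK5 (SE 0.062, adjusted p = 0.0153). Without shMEK5 replicate 2 neither gene was called in shMEK5 against shCTRL (adjusted p = 0.0624 for Rrm1 and 0.115 for Tk1) or between the knockdowns (0.0861 and 0.153). Rrm2, the small subunit of the reductase, had 47.6, 79.3 and 56.1 CPM in shERK5, 79.4 and 97.9 CPM in shMEK5, and 87, 57.5 and 55.3 CPM in shCTRL. Its libraries varied the most within groups, shERK5 replicate 2 and shCTRL replicate 1 each standing above the rest of their group. Against shCTRL, Rrm2 had a log2 fold change of -0.13 in shERK5 (SE 0.23, adjusted p = 0.647) and of 0.43 in shMEK5 (SE 0.25, adjusted p = 0.194), and shERK5 against shMEK5 gave -0.56 (SE 0.25, adjusted p = 0.119). Leaving out shERK5 replicate 2 gave a call for Rrm2 between the knockdowns, at -0.76 (adjusted p = 0.0468).

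The 3 chromatin assembly genes, like those of helicase activation, all fell in shERK5 against shCTRL, and in shMEK5 they split. Chaf1b, a subunit of chromatin assembly factor 1, which deposits histones on new DNA, showed the largest fall of the 38. It had 11.7, 12.7 and 12.1 CPM in shERK5, 22.7 and 23.2 CPM in shMEK5, and 29.3, 27.5 and 25.5 CPM in shCTRL. Its groups did not overlap, with shERK5 at 44.4% of the shCTRL mean. For Chaf1b the log2 fold change was -1.11 in shERK5 (SE 0.066, adjusted p = 4.3e-07) and -0.24 in shMEK5 (SE 0.074, adjusted p = 0.0189) against shCTRL, and -0.86 in shERK5 against shMEK5 (SE 0.074, adjusted p = 1.3e-05). In shMEK5 the fall of Chaf1b was not called without shMEK5 replicate 1 (adjusted p = 0.0958), shMEK5 replicate 2 (0.0699) or shCTRL replicate 1 (0.0545). Chaf1a, the large subunit of the same factor, had 75, 71.9 and 78.3 CPM in shERK5, 100.2 and 100.1 CPM in shMEK5, and 84.8, 89 and 83.3 CPM in shCTRL. Here shMEK5 lay above shCTRL and shERK5 below it, with no overlap. For Chaf1a the log2 fold change was -0.19 in shERK5 (SE 0.049, adjusted p = 0.00629) and 0.22 in shMEK5 (SE 0.054, adjusted p = 0.00648) against shCTRL, and -0.41 in shERK5 against shMEK5 (SE 0.054, adjusted p = 0.000218). Reads of Chaf1b per read of Chaf1a, chosen after the values were seen, averaged 0.162 ± 0.0119 in shERK5, 0.229 ± 0.00351 in shMEK5 and 0.320 ± 0.0217 in shCTRL. Uhrf1, which recognises hemimethylated DNA behind the fork, had 86.5, 99.3 and 93.9 CPM in shERK5, 126 and 134 CPM in shMEK5, and 143, 123 and 110.4 CPM in shCTRL. The shERK5 libraries were below all others. For Uhrf1 the log2 fold change was -0.42 in shERK5 (SE 0.09, adjusted p = 0.00268) and 0.056 in shMEK5 (SE 0.1, adjusted p = 0.67) against shCTRL, and -0.48 in shERK5 against shMEK5 (SE 0.1, adjusted p = 0.00469).

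The E cyclins, E2f1 and S phase control genes were the group with the most uniform rise in shMEK5, 5 of 5, while in shERK5 Ccne1 rose and the other 4 were not called. Ccne1, the cyclin E1 that activates the kinase driving S phase entry, had 14, 14.8 and 16.2 CPM in shERK5, 19.8 and 20.7 CPM in shMEK5, and 11.9, 9.94 and 11.7 CPM in shCTRL. Every knockdown library was above shCTRL, shMEK5 the most. For Ccne1 the log2 fold change was 0.39 in shERK5 (SE 0.082, adjusted p = 0.00175) and 0.81 in shMEK5 (SE 0.091, adjusted p = 6.12e-05) against shCTRL, and -0.41 in shERK5 against shMEK5 (SE 0.091, adjusted p = 0.00497). Ccne2, the second E cyclin, had 36.4, 28.2 and 29.3 CPM in shERK5, 36 and 38.1 CPM in shMEK5, and 30.5, 26.6 and 31.8 CPM in shCTRL. The shERK5 libraries overlapped both other groups. Against shCTRL, Ccne2 had a log2 fold change of 0.073 in shERK5 (SE 0.098, adjusted p = 0.538) and of 0.32 in shMEK5 (SE 0.11, adjusted p = 0.0362), and shERK5 against shMEK5 gave -0.25 (SE 0.11, adjusted p = 0.105). The rise of Ccne2 in shMEK5 was not called without either shMEK5 library, without shCTRL replicate 1 or 2 (0.0606 to 0.178 as adjusted p) or with no filter on low values (0.0705), and without shERK5 replicate 1 it was called lower in shERK5 than in shMEK5 (adjusted p = 0.00671).

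E2f1, the transcription factor that drives many replication genes, had 12, 12.4 and 12.7 CPM in shERK5, 18.9 and 17.2 CPM in shMEK5, and 13.2, 15.3 and 13.9 CPM in shCTRL. The shMEK5 libraries were highest, and shERK5 lay just below shCTRL in all libraries. For E2f1 the log2 fold change was -0.17 in shERK5 (SE 0.072, adjusted p = 0.0554) and 0.34 in shMEK5 (SE 0.08, adjusted p = 0.00597) against shCTRL, and -0.51 in shERK5 against shMEK5 (SE 0.08, adjusted p = 0.000674). Without shMEK5 replicate 1 the rise in shMEK5 was not called (adjusted p = 0.0644), and without shCTRL replicate 1 E2f1 was called lower in shERK5 (0.0308). Clspn encodes claspin, the adaptor of the replication checkpoint, and had 24.5, 22.1 and 22.2 CPM in shERK5, 37.2 and 34.4 CPM in shMEK5, and 25.6, 25.1 and 24.2 CPM in shCTRL. Both shMEK5 libraries were above all others. For Clspn the log2 fold change was -0.12 in shERK5 (SE 0.062, adjusted p = 0.112) and 0.50 in shMEK5 (SE 0.069, adjusted p = 0.000212) against shCTRL, and -0.62 in shERK5 against shMEK5 (SE 0.069, adjusted p = 7.13e-05). Leaving out shERK5 replicate 1 gave a call for Clspn in shERK5 (adjusted p = 0.0432). Dtl, the ubiquitin ligase adaptor that has Cdt1 degraded in S phase, averaged 106 ± 0.827 CPM in shERK5, 119 ± 3.6 CPM in shMEK5 and 107 ± 5.23 CPM in shCTRL, with both shMEK5 libraries above all others. For Dtl the log2 fold change was -0.015 in shERK5 (SE 0.048, adjusted p = 0.805) and 0.14 in shMEK5 (SE 0.053, adjusted p = 0.0473) against shCTRL, and -0.16 in shERK5 against shMEK5 (SE 0.053, adjusted p = 0.0384). Its call in shMEK5 was lost under 9 of 17 alternatives (adjusted p of up to 0.24 without shMEK5 replicate 1), and that between the knockdowns under 7.

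**Figure D4:**
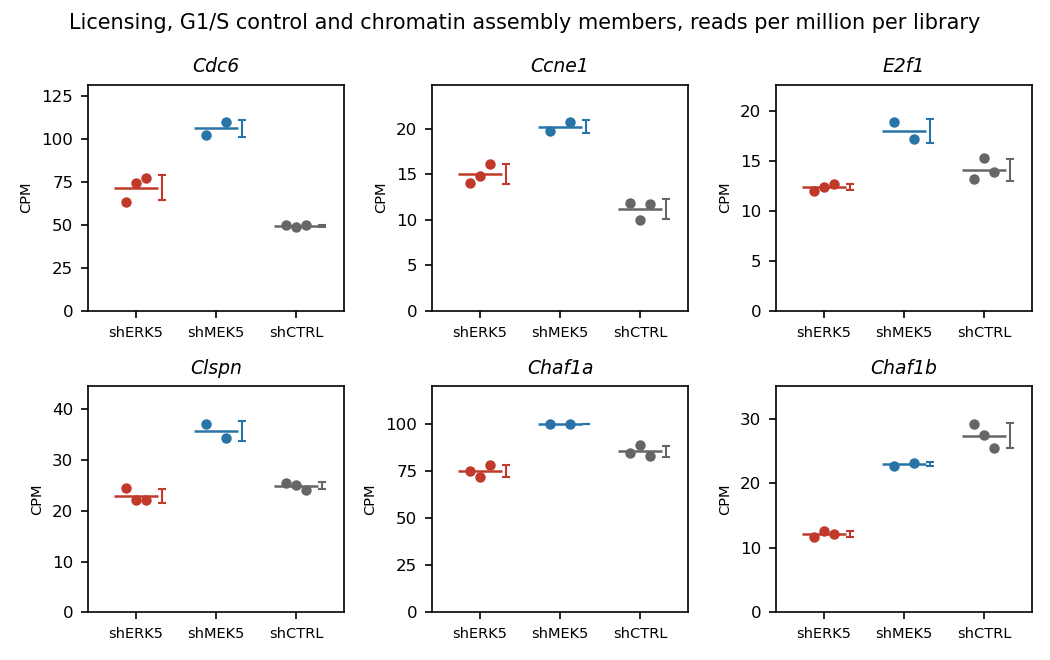
CPM in each library (points) of Cdc6, Ccne1, E2f1, Clspn, Chaf1a and Chaf1b, with group mean (line) and SD (bar beside it), each axis starting at 0; shERK5, shMEK5 and shCTRL stand left to right. In the first 5 the shMEK5 libraries are highest, and in Chaf1b the order is shERK5, shMEK5, shCTRL from low to high.

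The role groups can be set beside genes of the next phase of the cycle. Averaged over genes on the log2 scale, the difference from shCTRL in shERK5 was -0.45 for helicase activation, -0.57 for chromatin assembly and 0.032 for the E cyclin group. In shMEK5 it was -0.11 for helicase activation, 0.012 for chromatin assembly and 0.42 for the E cyclin group. All 30 of a list of G2/M genes, which act in mitosis, fell in shERK5 against shCTRL (median log2 fold change -0.80) and against shMEK5 (median -0.60), and in shMEK5 against shCTRL 9 fell and 2 rose (median -0.18). Of all tested genes, 31.3% fell in shERK5 against shCTRL and 17.4% fell in shERK5 against shMEK5. In shMEK5 against shCTRL 25.6% fell and 23.1% rose. The 9 of 30 that fell there were near the share of all genes, and the 2 that rose were below it. Both shMEK5 libraries lay below all shCTRL libraries in 21 of the 30 and above them in 2. Of all tested genes, 36.5% lay below and 32.2% above (68.7% together). The summed expression of the G2/M genes was 2453 ± 123 CPM in shERK5, 3716 ± 92.9 CPM in shMEK5 and 4010.2 ± 329 CPM in shCTRL. Of this list, Nusap1, a spindle microtubule protein, averaged 20.4 ± 1.61 CPM in shERK5, 98.7 ± 8.06 CPM in shMEK5 and 113 ± 10.8 CPM in shCTRL, and Tpx2, an activator of Aurora A, 68.5 ± 1.73 CPM in shERK5, 147 ± 1.86 CPM in shMEK5 and 155 ± 10.3 CPM in shCTRL. For Nusap1 the log2 fold change was -2.41 in shERK5 (SE 0.081, adjusted p = 3.83e-08) and -0.19 in shMEK5 (SE 0.09, adjusted p = 0.102) against shCTRL, and -2.22 in shERK5 against shMEK5 (SE 0.09, adjusted p = 1.52e-07). Against shCTRL, Tpx2 had a log2 fold change of -1.16 in shERK5 (SE 0.053, adjusted p = 1.48e-07) and of -0.075 in shMEK5 (SE 0.06, adjusted p = 0.319), and shERK5 against shMEK5 gave -1.09 (SE 0.06, adjusted p = 8.46e-07). Both fell in shERK5 against either other group. Whether these G2/M differences bear on the values of the replication genes was not tested.

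**Figure D5:**
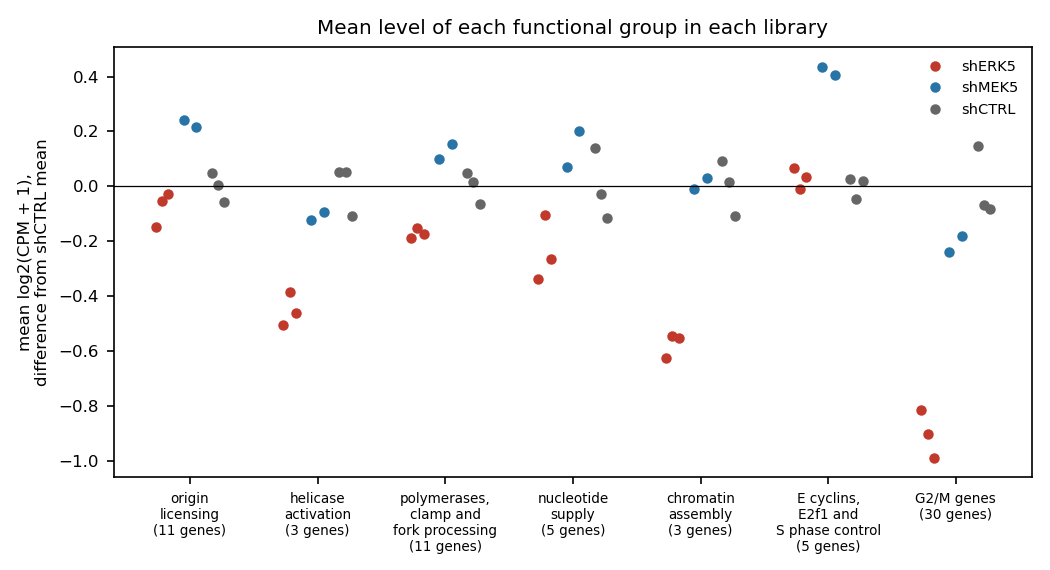
Mean log2(CPM + 1) of each group of replication genes and of 30 G2/M genes in each library (points), as the difference from the shCTRL mean, with shERK5, shMEK5 and shCTRL left to right. The shERK5 points lie below the shMEK5 points in every group, by the most for the G2/M genes, and the E cyclin group is the one whose shERK5 points lie around 0.

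Further genes of the same processes, from lists chosen with earlier results of these data known, gave the following counts, to be read against the shares of all tested genes given above: 31.3% fell and 32% rose in shERK5 against shCTRL, 25.6% fell and 23.1% rose in shMEK5 against shCTRL, and 17.4% fell and 22% rose in shERK5 against shMEK5. Of 18 other licensing and firing genes, 7 fell and 2 rose in shERK5 against shCTRL, 4 fell and 5 rose in shMEK5, and 10 fell and 4 rose in shERK5 against shMEK5 (median log2 fold changes -0.12, 0.017 and -0.30). Mtbp, a partner of the firing factor Ticrr, averaged 90.7 ± 4.1 CPM in shERK5, 139.8 ± 3.86 CPM in shMEK5 and 159 ± 16.5 CPM in shCTRL. For Mtbp the log2 fold change was -0.80 in shERK5 (SE 0.07, adjusted p = 5.4e-06) and -0.18 in shMEK5 (SE 0.078, adjusted p = 0.0818) against shCTRL, and -0.62 in shERK5 against shMEK5 (SE 0.078, adjusted p = 0.000161). It fell in shERK5 against either other group. Gins4, another GINS subunit, averaged 20.6 ± 0.887 CPM in shERK5, 23.2 ± 0.201 CPM in shMEK5 and 36.7 ± 3.68 CPM in shCTRL. For Gins4 the log2 fold change was -0.80 in shERK5 (SE 0.075, adjusted p = 8.42e-06) and -0.63 in shMEK5 (SE 0.083, adjusted p = 0.000155) against shCTRL, and -0.16 in shERK5 against shMEK5 (SE 0.083, adjusted p = 0.144). Like Gins2, it fell in both knockdowns. Of 23 other polymerase, clamp and fork genes, 15 fell and 2 rose in shERK5, 8 fell and 2 rose in shMEK5, and 10 fell and 1 rose between the knockdowns (medians -0.34, -0.16 and -0.16). Chtf18, a subunit of an alternative clamp loader, averaged 11.2 ± 0.658 CPM in shERK5, 14.3 ± 0.73 CPM in shMEK5 and 24.2 ± 1.87 CPM in shCTRL. For Chtf18 the log2 fold change was -1.04 in shERK5 (SE 0.075, adjusted p = 1.46e-06) and -0.72 in shMEK5 (SE 0.084, adjusted p = 7.25e-05) against shCTRL, and -0.33 in shERK5 against shMEK5 (SE 0.084, adjusted p = 0.0103). It fell in both knockdowns, to a lower level in shERK5. Pclaf, which binds Pcna, averaged 30.5 ± 1.05 CPM in shERK5, 53.6 ± 0.96 CPM in shMEK5 and 60.1 ± 7.15 CPM in shCTRL. For Pclaf the log2 fold change was -0.95 in shERK5 (SE 0.076, adjusted p = 2.98e-06) and -0.16 in shMEK5 (SE 0.085, adjusted p = 0.152) against shCTRL, and -0.79 in shERK5 against shMEK5 (SE 0.085, adjusted p = 5.44e-05). Its fall was called in shERK5 against both other groups. Pole4, a small subunit of polymerase epsilon, was the gene that rose between the knockdowns and averaged 65.2 ± 2.79 CPM in shERK5, 36.8 ± 0.585 CPM in shMEK5 and 55.7 ± 3 CPM in shCTRL. Against shCTRL, Pole4 had a log2 fold change of 0.22 in shERK5 (SE 0.055, adjusted p = 0.00484) and of -0.58 in shMEK5 (SE 0.062, adjusted p = 4.13e-05), and shERK5 against shMEK5 gave 0.81 (SE 0.062, adjusted p = 6.75e-06).

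Of 23 further nucleotide supply enzymes, 6 fell and 13 rose in shERK5, 2 fell and 12 rose in shMEK5, and 9 fell and 2 rose in shERK5 against shMEK5; their medians were 0.13, 0.26 and -0.061. Shmt2, the mitochondrial serine hydroxymethyltransferase, averaged 277 ± 5.21 CPM in shERK5, 444 ± 7.02 CPM in shMEK5 and 512 ± 24 CPM in shCTRL. For Shmt2 the log2 fold change was -0.88 in shERK5 (SE 0.046, adjusted p = 2.17e-07) and -0.20 in shMEK5 (SE 0.051, adjusted p = 0.00793) against shCTRL, and -0.68 in shERK5 against shMEK5 (SE 0.051, adjusted p = 6e-06). Thus Shmt2 fell in both knockdowns. Cmpk1, a pyrimidine monophosphate kinase, averaged 156 ± 5.46 CPM in shERK5, 125 ± 4.6 CPM in shMEK5 and 96.9 ± 7.19 CPM in shCTRL. For Cmpk1 the log2 fold change was 0.68 in shERK5 (SE 0.058, adjusted p = 4.57e-06) and 0.36 in shMEK5 (SE 0.065, adjusted p = 0.00116) against shCTRL, and 0.32 in shERK5 against shMEK5 (SE 0.065, adjusted p = 0.00296). Cmpk1 rose in both, to its highest level in shERK5. Of 16 other chromatin genes at the fork, 9 fell and 1 rose in shERK5, 3 fell and 5 rose in shMEK5, and between the knockdowns 6 fell and 10 were not called (medians -0.27, -0.0062 and -0.21). Supt16, a subunit of the histone chaperone FACT, averaged 78.7 ± 0.833 CPM in shERK5, 132 ± 1.72 CPM in shMEK5 and 131 ± 12 CPM in shCTRL. For Supt16 the log2 fold change was -0.73 in shERK5 (SE 0.062, adjusted p = 4.5e-06) and 0.016 in shMEK5 (SE 0.069, adjusted p = 0.867) against shCTRL, and -0.74 in shERK5 against shMEK5 (SE 0.069, adjusted p = 2.29e-05).

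Of 36 G1/S regulators 32 were tested (not Cdkn1c, Cdkn2a, Cdkn2b and Mycn). In shERK5 11 fell and 8 rose, in shMEK5 8 fell and 13 rose, and between the knockdowns 12 fell and 5 rose (medians -0.10, 0.074 and -0.12). Their shares that fell against shCTRL were near those of all tested genes in both knockdowns. The 13 that rose in shMEK5 and the 12 that fell between the knockdowns were above the shares of all genes, 23.1% and 17.4%. The 8 that rose in shERK5 and the 5 that rose between the knockdowns were below them, 32% and 22%. Tfdp2, a partner of E2F proteins, averaged 22.6 ± 0.272 CPM in shERK5, 31.8 ± 1.23 CPM in shMEK5 and 68.8 ± 10.2 CPM in shCTRL. For Tfdp2 the log2 fold change was -1.55 in shERK5 (SE 0.087, adjusted p = 3.41e-07) and -1.08 in shMEK5 (SE 0.098, adjusted p = 1.56e-05) against shCTRL, and -0.48 in shERK5 against shMEK5 (SE 0.098, adjusted p = 0.00335). It fell in both knockdowns and was lowest in shERK5. Fbxo5, an inhibitor of the anaphase-promoting complex, averaged 17.5 ± 1.4 CPM in shERK5, 29.2 ± 1.15 CPM in shMEK5 and 38.8 ± 1.66 CPM in shCTRL. Against shCTRL, Fbxo5 had a log2 fold change of -1.11 in shERK5 (SE 0.068, adjusted p = 5.35e-07) and of -0.40 in shMEK5 (SE 0.076, adjusted p = 0.00167), and shERK5 against shMEK5 gave -0.71 (SE 0.076, adjusted p = 5.3e-05). The order of its groups was the same. Ccna2, the S and G2 cyclin, averaged 121 ± 4.73 CPM in shERK5, 174 ± 0.981 CPM in shMEK5 and 183 ± 8.65 CPM in shCTRL. For Ccna2 the log2 fold change was -0.59 in shERK5 (SE 0.05, adjusted p = 4.1e-06) and -0.068 in shMEK5 (SE 0.056, adjusted p = 0.332) against shCTRL, and -0.52 in shERK5 against shMEK5 (SE 0.056, adjusted p = 5.23e-05). Ccnd1, the G1 cyclin, averaged 1328 ± 32.1 CPM in shERK5, 2028 ± 109.9 CPM in shMEK5 and 1759 ± 64.2 CPM in shCTRL. For Ccnd1 the log2 fold change was -0.40 in shERK5 (SE 0.046, adjusted p = 3.39e-05) and 0.20 in shMEK5 (SE 0.052, adjusted p = 0.0079) against shCTRL, and -0.61 in shERK5 against shMEK5 (SE 0.052, adjusted p = 1.28e-05). Ccnd1 thus fell in shERK5 and rose in shMEK5. Histone genes that are expressed with replication fell in both knockdowns against shCTRL. Of 62 such genes 60 were tested; 56 fell and 4 were not called in shERK5 (median log2 fold change -1.54), 45 fell and 15 were not called in shMEK5 (median -1.04), and 28 fell and 1 rose in shERK5 against shMEK5 (median -0.49). Many of these histone copies are near identical, so the values of single copies are uncertain.

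Some of the 38 genes share sequence with others, and whether strand was used in the counting is not stated in these sources. In GENCODE M21, 18 of the 38 are overlapped by another annotated gene, 16 on the opposite strand and 7 on the same strand. Mcm7 (chr5:138164583-138172422, minus strand) is overlapped by Cops6 and Ap4m1 on the opposite strand and by the microRNA genes Mir25, Mir93 and Mir106b within it. On the opposite strand, Cdc45 is overlapped by Ufd1, Orc6 by Vps35, Chaf1a by Ubxn6 and Lig1 by Zswim9. Gins2, the gene with the fewest reads, is overlapped there by Gse1 and Gm20388. So are Rfc4 by Eif4a2, Rfc5 by Wsb2, Fen1 by Tmem258 and Gm10143, Tk1 by Afmid and Gm20708, and Ccne2 by Ints8. Orc1, Cdt1, Pola1, Pold1, Pole, Chaf1b and Clspn are overlapped on either strand by predicted or small RNA genes. Pcna and Tyms have annotated pseudogenes named after them (Pcna-ps1, Pcna-ps2 and Tyms-ps). Copies under other names were not searched for. No other gene had read counts identical to those of any of the 38.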

How the data were processed

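Total RNA of 8 libraries of 4T1 cells was prepared with a stranded kit after removal of ribosomal RNA, per the labels' protocols. Per the submitters' processing notes, reads were handled with STAR and the build mm10. The sources used here do not give the aligner's version, the counting program, the annotation or whether strand was used. The deposited unit is CPM, made by the authors from reads assigned to 24454 genes. Each library sums to 1000000 CPM, and 100% of values above 0 are whole multiples of 1 read within 0.01 read, so reads were recovered. Limits from counts of 0 (3 reads) cover counting error only.

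Symbols came from RefSeq by Entrez number (24374 genes), exon lengths and overlaps from GENCODE M21 and promoters from a RefSeq table of GRCm38.p6, with the first entry used for the 4 genes that have several. Libraries were grouped by hairpin. The 11623 genes that reached 1 CPM in 2 or more libraries were tested. The main test was limma 3.58.1 (R 4.3.3) with trend and robust moderation on log2(CPM + 1), in a single model of all 8 libraries with group as its only term. P-values were Benjamini-Hochberg adjusted over all tested genes and called under 0.05. This scale understates changes of low genes, and CPM are relative to the library total. Replicates differed by more than sampling noise (chi-square per degree of freedom 7.45 to 37.4). The test was checked on simulated data in which 50 of 11623 genes were changed at each fold size. In the real data 39.4% to 63.3% of tested genes were called, depending on the comparison. The adjusted threshold is less strict when more genes change, so the simulated rates are not those of the real data. Of 50 genes changed 1.25-fold, 20 to 27 were called in the right direction, depending on the comparison. Of 50 genes changed 2-fold, 47 to 50 were. A gene that was not called may still have changed by a small amount. Alternatives were RLE or TMM scaling, a pseudocount of 0.1, no filter or a minimum of 5 CPM, edgeR 4.0.16 and DESeq2 1.42.0 on the recovered reads, a fit of the groups compared alone, the replicate number as a block, and leaving out each library.

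The 38 genes and the other lists were chosen with earlier results of these data known. Values in every library are given for up to 4 genes per role with the smallest adjusted p in any comparison and for genes called in none; Mcm2, Mcm4, Mcm5 and Pola1 were added after their values were seen. From each other list up to 4 genes with the smallest adjusted p were eligible to be named.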

Additional observations from a re-analysis of the deposited data

How the results depend on the processing

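Over 17 alternatives, 8 of which left out a library, 1938 log2 fold changes of the 38 genes were recomputed. Of these, 1835 kept their direction and their side of the threshold, 69 lost a call, 10 gained one and 24 changed sign, 0 of them a called value. Called under every alternative were 23 of 27 genes in shERK5 against shCTRL (not Mcm2, Mcm3, Rfc5 and Rpa2), 12 of 23 in shMEK5 against shCTRL, and 21 of 30 in shERK5 against shMEK5. RLE and TMM scaling moved the median of all genes by at most 0.0224 on the log2 scale. The causes of these changes were not tested. With 2 libraries in shMEK5, leaving out either assumes that the lone library varies like the other groups.

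When a library was left out, the count of replication genes that rose in shERK5 against shCTRL was 5 to 9, the count that rose in shMEK5 was 11 to 17 and the count that fell in shMEK5 was 3 to 5. All tested genes called in shERK5 against shMEK5 numbered 2912 to 4827, against 4581 with all libraries, lowest without shMEK5 replicate 1. In shMEK5 against shCTRL, too, fewer of all tested genes were called when either shMEK5 library was left out. The alternatives that left out no library kept every count of calls within 1.5 times its value.

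Replicate numbers are shared between groups, but the labels do not say that they mark a shared culture or day. Correlations of deviations between same-numbered libraries were -0.0648, -0.191 and 0.169 for shERK5 with shCTRL. They were 0.465 and 0.518 for shERK5 with shMEK5, and -0.13 and 0.0312 for shMEK5 with shCTRL. Between libraries of different number they ran from -0.518 to 0.400. The deviations of the 2 shMEK5 libraries mirror each other, so their values are not independent. These values do not settle whether same-numbered libraries were paired, and the main model left the number out. With the replicate number as a block, 7462 genes were called in shERK5 against shCTRL (7 of the 38 rose and 19 fell), 4435 in shERK5 against shMEK5 (0 rose and 30 fell) and 5763 in shMEK5 against shCTRL (18 rose and 5 fell); Mcm2 in shERK5 lost its call (adjusted p = 0.0511).

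Changes of sign were all near 0 and not called. For Pold1 in shMEK5, the log2 fold change was 0.00034 with RLE scaling, 0.0034 with TMM scaling and 0.00088 in edgeR, and for Tyms in shMEK5 it was -0.0027 with the replicate block. With a library left out, the ranges in shMEK5 against shCTRL were -0.034 to 0.041 for Mcm5, -0.063 to 0.19 for Cdt1, -0.0037 to 0.031 for Pcna, -0.075 to 0.027 for Pold1, -0.025 to 0.095 for Tyms and -0.033 to 0.15 for Uhrf1. In shERK5 against shCTRL they were -0.101 to 0.00302 for Rfc4, -0.051 to 0.0799 for Rrm1, -0.33 to 0.079 for Rrm2, -0.0196 to 0.046 for Tk1, -0.038 to 0.14 for Ccne2, -0.045 to 0.023 for Dtl and -0.0602 to 0.052 for Gmnn. For Orc1 in shERK5 against shMEK5 the range was -0.11 to 0.087.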
